A study of Mus musculus with 2 samples.

Results

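Lymphoid cells were selected by 2 rules from parathyroid glands of mice, measured by single-cell RNA-seq: type 2 cells, which carry the IL-33 receptor gene Il1rl1 with Gata3, and cells that meet a natural killer (NK) rule, of which 6 of 14 in replicate 1 and 1 of 1 in replicate 2 also held T cell receptor complex transcripts. In all 59 of 4924 cell barcodes were members, 44 by the type 2 rule and 15 by the NK rule, and 0 cells met both. All members had at least 500 genes, under 15% mitochondrial UMIs, under 1% Pth UMIs, at most 1 UMI over the complement genes C1qa, C1qb and C1qc, and fewer than 2 of the gamma-delta T cell genes Trdc, Tcrg-C1, Cd163l1 and Il23r. A UMI is the tag that marks 1 captured mRNA molecule. Type 2 cells had at least 1 UMI of Il1rl1, of Gata3, and of Areg, Il5 or Ccr8. NK-rule cells had a UMI of at least 3 of the 6 genes Gzma, Nkg7, Klrb1c, Klre1, Ncr1 and Xcl1. The members were thus selected on the counts of these transcripts, so their levels are given as a description and were not counted among tested results.

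The glands came from hosts of the genotype Gcm2-/- on a BDF1B6 background that had been complemented with mouse embryonic stem cells carrying Pth-tdTomato, a reporter driven by the parathyroid hormone gene. Every mouse of both libraries carried this deletion and this complementation, and the libraries are replicates of 1 group with no untreated or wild-type glands. For replicate 1, glands of 3 mice of 9 to 12 weeks were pooled, and chimerism in peripheral blood was 50 to 70%. For replicate 2, those of 5 mice of 6 to 13 weeks were pooled, at 60 to 70%. Each pool mixed males and females. The hosts kept part of their own blood cells, so a lymphocyte of these glands may descend from the host or from the stem cells. The libraries held 1406 barcodes with 41517620 UMIs in replicate 1 and 3518 barcodes with 88283761 UMIs in replicate 2, and 1262 and 3322 cells passed the limits on genes and mitochondrial UMIs.

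Innate lymphoid cells are lymphocytes without rearranged antigen receptors that live mostly in tissues. Type 2 cells respond to alarm signals of damaged tissue such as IL-33 and IL-25 and release IL-5, IL-13 and amphiregulin, which act on eosinophils, epithelium and repair. GATA3 is the transcription factor they depend on. NK cells and their tissue-resident relatives, the type 1 innate lymphoid cells, depend on T-box factors (T-bet, encoded by Tbx21, and Eomes), read inhibitory and activating receptors on other cells, and kill with granzymes and perforin or release interferon gamma.

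Promoters of genes that mark the sets are shown because the same transcription factor families define these cells. The sequences are the 250 bases before the RefSeq start on build GRCm38.p6, written 5′ to 3′ on the gene's strand. In the first 3, capitals mark the letters AGATAA and AGATAG as well as TGATAA and TGATAG, searched as the GATA motif on either strand. Il1rl1 (chr1:40429320-40429569, plus strand) encodes the IL-33 receptor, Il5 (chr11:53720544-53720793, plus strand) the eosinophil growth factor IL-5, and Il13 (chr11:53634703-53634952, minus strand) the cytokine IL-13.
Il1rl1: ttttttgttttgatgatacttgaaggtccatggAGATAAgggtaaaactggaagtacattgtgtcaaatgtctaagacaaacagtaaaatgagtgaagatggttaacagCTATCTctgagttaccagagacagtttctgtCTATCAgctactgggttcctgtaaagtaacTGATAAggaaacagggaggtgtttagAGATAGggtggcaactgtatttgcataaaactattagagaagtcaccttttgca
Il5: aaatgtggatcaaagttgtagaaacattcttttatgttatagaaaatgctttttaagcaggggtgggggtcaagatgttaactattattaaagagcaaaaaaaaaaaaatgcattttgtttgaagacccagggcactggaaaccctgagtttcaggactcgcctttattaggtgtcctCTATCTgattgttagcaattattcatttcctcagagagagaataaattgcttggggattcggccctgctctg
Il13: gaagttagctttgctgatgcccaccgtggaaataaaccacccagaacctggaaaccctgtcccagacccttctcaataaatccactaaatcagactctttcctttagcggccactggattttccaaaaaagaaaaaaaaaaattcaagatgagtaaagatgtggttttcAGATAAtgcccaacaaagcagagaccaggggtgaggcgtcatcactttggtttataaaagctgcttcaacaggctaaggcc
The Il1rl1 window held 5 matches, and those of Il5 and Il13 held 1 each. Il1rl1 has 2 RefSeq starts, both with a GATA match, and the window shown is that of the lower coordinate. Over all 32851 promoters of the RefSeq table, 26.5% held a GATA match in the same 250 bases. Among the other type 2 genes of the rule, the promoter of Ccr8 held a match and those of Gata3 and Areg held none in this window. None of the 6 NK genes of the rule held one.

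In the next pair, capitals mark letters of the T-box motif on either strand. They are GGTGTGA in Nkg7 (chr7:43436888-43437137, plus strand), which encodes a protein of cytotoxic granules. In Gzma (chr13:113100982-113101231, minus strand), which encodes granzyme A, they are the shorter core GGTGT, which lies within GGTGTGA.
Nkg7: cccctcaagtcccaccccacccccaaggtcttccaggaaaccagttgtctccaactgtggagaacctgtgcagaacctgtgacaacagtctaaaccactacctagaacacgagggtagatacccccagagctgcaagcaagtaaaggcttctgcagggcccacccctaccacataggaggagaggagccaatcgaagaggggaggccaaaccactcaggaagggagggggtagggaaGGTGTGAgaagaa
Gzma: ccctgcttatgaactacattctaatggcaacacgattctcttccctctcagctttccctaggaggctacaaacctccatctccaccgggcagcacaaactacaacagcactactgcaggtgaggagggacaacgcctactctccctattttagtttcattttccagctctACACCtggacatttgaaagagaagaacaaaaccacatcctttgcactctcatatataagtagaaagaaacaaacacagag
Of the 32851 promoters, 3.33% held GGTGTGA and 36.2% held the core GGTGT. Among the 6 NK genes of the rule, the promoters of Nkg7 and Xcl1 held GGTGTGA. The type 2 genes of the rule held no GGTGTGA in this window, while those of Il1rl1 (at 1 of its 2 starts), Gata3 and Il5 held the core. Of the NK genes of the rule, Gzma, Nkg7, Klrb1c and Xcl1 held the core, and Klre1 and Ncr1 did not.

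The type 2 rule found 13 cells in replicate 1, or 1.03% of 1262 cells (95% exact binomial interval 0.550 to 1.76), and 31 cells in replicate 2, or 0.933% of 3322 cells (0.635 to 1.32). The intervals of these shares overlapped. The NK rule found 14 cells in replicate 1, or 1.11% (0.608 to 1.85), and 1 cell in replicate 2, or 0.0301% (0.000762 to 0.168). Of the cells of both rules together, the NK rule made up 51.9% in replicate 1 (14 of 27, interval 31.9 to 71.3) and 3.13% in replicate 2 (1 of 32, interval 0.0791 to 16.2). The intervals cover counting error only, and with 1 library per pool the spread between mice was not measured. No member barcode was among the 3 barcodes that the libraries shared.

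**Figure D1:**
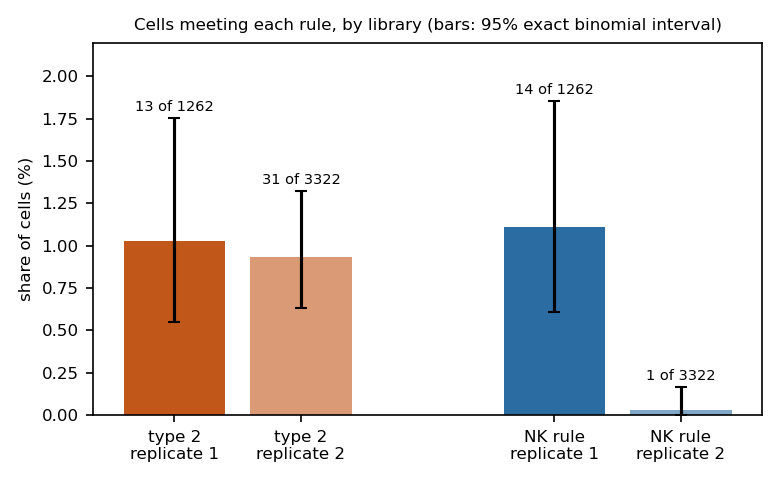
Share of cells (percent of cells that passed the limits on genes and mitochondrial UMIs) that meet the type 2 rule and the NK rule in each library, with 95% exact binomial intervals. Type 2 shares are 1.03% and 0.933%, and NK-rule shares are 1.11% and 0.0301% in replicates 1 and 2.

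The edges of the rules were as follows. In replicate 1, 444 cells within the other limits had no NK gene of the rule, 13 had 1, 3 had 2, 1 had 3, 1 had 4, 9 had 5 and 3 had all 6. In replicate 2, 861 cells had none, 6 had 1, 2 had 2 and 1 had 4. Of the replicate 1 cells with both Il1rl1 and Gata3, 1 had none of Areg, Il5 and Ccr8, 1 had 1, 6 had 2 and 6 had all 3. Of those in replicate 2, 2 had none, 12 had 1, 16 had 2 and 3 had all 3. A further 14 and 18 cells of the 2 libraries had Il1rl1 without a Gata3 UMI.

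The single NK-rule cell of replicate 2 held transcripts of the T cell receptor complex beside NK genes. It held 14674 UMIs, among them 33 of the T cell receptor complex (12 of Cd3d, 8 of Cd3e, 12 of Cd3g and 1 of Trac) and 40 of Trbc1, and none of Tbx21, Eomes, Gzma, Ncr1, Ccl5 or Tyrobp. In replicate 1, 6 of 14 NK-rule cells had a UMI of Cd3d, Cd3e, Cd3g or Trac, and 4 of them had at least 5 such UMIs (5, 11, 21 and 50). Tbx21 or Eomes was found in 13 of the 14. The set is therefore called by its rule. Its replicate 2 sum rests on 1 cell, in which 1 UMI equals 68.1 CPM (UMIs scaled to a total of 1000000). NK receptors and adaptors summed to 5384 CPM in that cell, with 17 of 36 detected, against 7726 CPM in NK-rule cells of replicate 1. In type 2 cells they summed to 880 and 681 CPM. Trbc1 was also found in all 8 NK-rule cells of replicate 1 without a receptor complex UMI. Among type 2 cells, 1 of 13 and 8 of 31 had a UMI of the receptor complex, 0 and 1 had at least 5, and none had a Foxp3 UMI. The highest count of the complex in 1 cell was 31, and of Tcrg-C1 19, both in replicate 2. The 18 T cell genes summed to 995 and 1426 CPM in type 2 cells, against 1685 CPM in NK-rule cells of replicate 1. Gamma-delta cells had 5241 and 6201 CPM, and other cells of the glands 28.0 and 9.67 CPM. Mast cells also carry Il1rl1, but of 9 mast cell markers 1 was detected in each type 2 sum, with 4 UMIs of Hdc in replicate 1 and 1 UMI of Cpa3 in replicate 2.

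Transcripts of other cells were also present. Fibroblast markers summed to 7.21 CPM in type 2 cells of replicate 1 and 1592 CPM in those of replicate 2, and endothelial markers to 216 and 1525 CPM. In replicate 2, 5 of 31 type 2 cells had at least 5 UMIs of 7 stromal and endothelial genes. In NK-rule cells the endothelial markers reached 930 CPM in replicate 1, where 1 cell of 37571 UMIs held 104 UMIs of those 7 genes at a doublet score of 0.329. The part of these transcripts in the comparisons was not tested, and counts without such cells are given beside them. Pth, the product of the parathyroid cells, stood at 1752 and 1640 CPM in type 2 cells and 1621 and 818 CPM in NK-rule cells, with at least 1 UMI in every member, against 141019 CPM in the Pth-rich cells of replicate 1. An NK-rule cell of replicate 1, of 27636 UMIs, held 321 UMIs of the parathyroid marker Chga, 122 of Pth and 16 of Kl. It was the cell with 50 T cell receptor complex UMIs, and it had 3 NK genes of the rule and Eomes without Tbx21. Its doublet score of 0.103 was under the limit of 0.25 for likely doublets. The alternative limit of Pth below 0.3% leaves it out. Its part in the comparisons was not tested.

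Type 2 cells held 138711 UMIs in replicate 1 and 312761 in replicate 2, with medians of 10233 and 8455 per cell. Their level of Il1rl1 was 851 CPM in replicate 1, with a 95% exact Poisson interval of 704 to 1019, and 828 CPM in replicate 2, where it spanned 730 to 935, and NK-rule cells had no Il1rl1 UMI. Gata3 was at 843 and 585 CPM in type 2 cells, against 124 and 68.1 CPM in NK-rule cells. The intervals of Il1rl1 overlapped between the replicates of type 2 cells, whereas those of Gata3, 698 to 1011 CPM in replicate 1 and 503 to 676 CPM in replicate 2, did not.

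The marker cytokines differed in how evenly the type 2 cells carried them. Areg, which encodes the repair factor amphiregulin, was at 1709 and 1532 CPM and was found in 13 of 13 and 26 of 31 cells, with up to 58 and 80 UMIs in 1 cell. Il5 was at 360.5 CPM in replicate 1, between 268 and 475 by counting error, and at 112 CPM in replicate 2, between 77.9 and 156. An Il5 UMI was found in 6 of 13 and 8 of 31 cells, and at an equal depth of 5000 UMIs per cell the expected shares were 40.9% and 20.4%. The Il5 level rested on few cells, since 24 of 50 UMIs in replicate 1 and 12 of 35 in replicate 2 came from 1 cell each. No Il5 UMI was found in the 15 NK-rule cells or in the 88 gamma-delta cells of the same glands, whose median depths were 12357 and 8838 UMIs. Ccr8, the receptor of the chemokine CCL1, was at 469 and 163 CPM and in 12 of 13 and 19 of 31 cells. Areg and Ccr8 occurred together in 12 of 13 and 14 of 31 cells.

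Cytokines outside the rule were sparse in the same way. Il13 was at 79.3 and 70.3 CPM in type 2 cells, in 4 of 13 and 6 of 31 cells, and 15 of the 22 UMIs of replicate 2 came from 1 cell. Il4, a further type 2 cytokine, was at 115 and 32.0 CPM, and 15 of its 16 UMIs in replicate 1 came from 1 cell. Il5 and Il13 were found in the same cell in 2 of 13 and 3 of 31 cells. At least 1 UMI of Il5, Il13 or Il4 was found in 8 of 13 and 16 of 31 cells. Il2, the T cell growth factor, was at 447 and 41.6 CPM, and 36 of its 62 UMIs in replicate 1 came from 1 cell. Calca, which encodes the neuropeptide CGRP and calcitonin, was found in 7 of 13 and 13 of 31 cells, and it shared 6 and 3 cells with Il5.

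**Figure D2:**
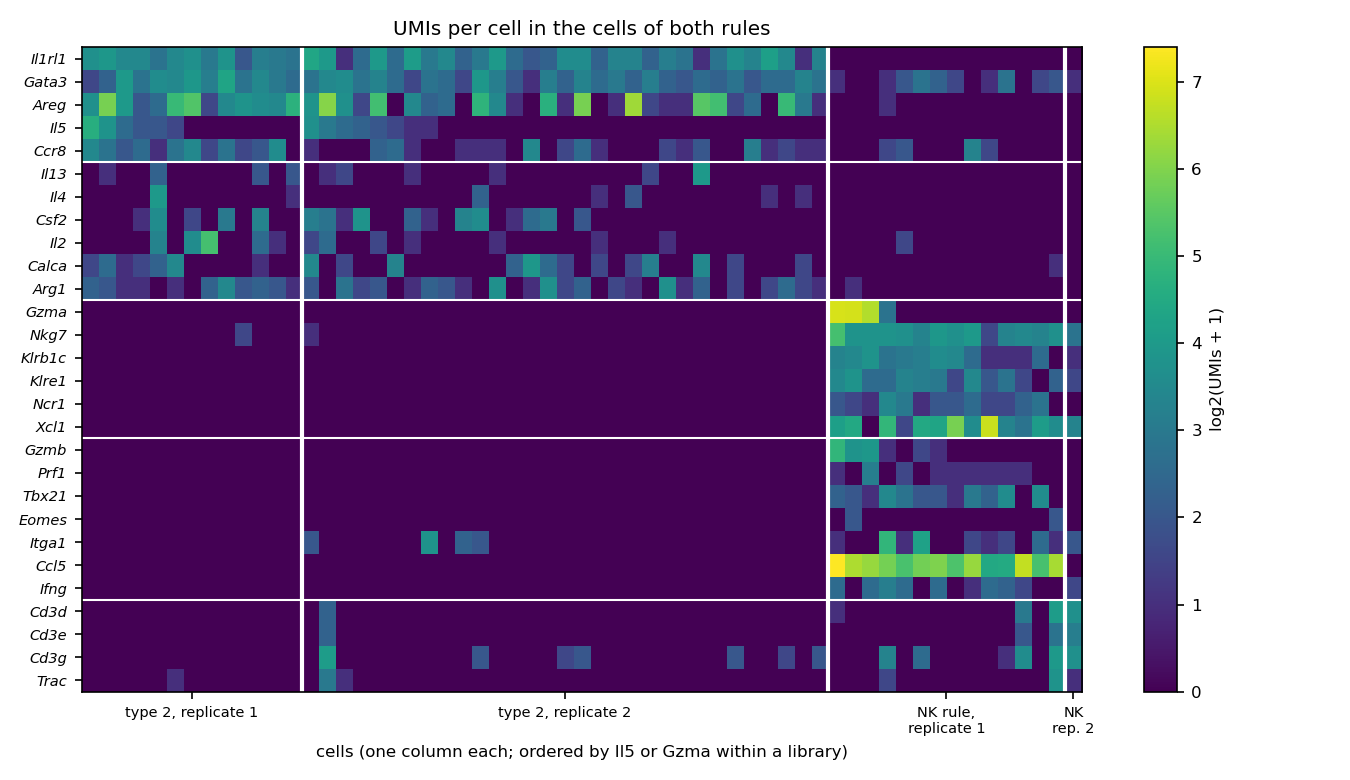
UMIs per cell on a log2(UMIs + 1) scale, with 1 column per cell, type 2 cells of replicates 1 and 2 on the left and NK-rule cells on the right, and genes in rows grouped as rule genes, other cytokines, NK genes and the T cell receptor complex. Il1rl1 and Gata3 fill all 44 type 2 columns while Il5 is in 14 of them, Gzma is in 4 of the 15 NK-rule columns, and the single replicate 2 column on the right carries Cd3d, Cd3e and Cd3g.

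NK-rule cells held 234418 UMIs in replicate 1, with a median of 14588 per cell, and 14674 in the 1 cell of replicate 2. Xcl1, which encodes the chemokine lymphotactin, was at 1416 CPM in replicate 1 (Poisson interval 1268 to 1577) and 613 CPM in replicate 2. Nkg7 was at 764 and 409 CPM, against 14.4 and 3.197 CPM in type 2 cells. Klrb1c (the NK1.1 antigen) was at 371 and 68.1 CPM, Klre1 (a killer cell lectin-like receptor) at 358 and 136 CPM, and Ncr1 (the activating receptor NKp46) at 209 and 0 CPM. Type 2 cells had no UMI of these last 3 genes or of Xcl1.

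The cytotoxic genes split the NK-rule cells of replicate 1. Gzma was at 1455 CPM but came from 4 of 14 cells, which held 122, 121, 92 and 6 UMIs. Gzmb, which encodes granzyme B, was found in 6 of 14 cells, among them all 4 with Gzma, and Prf1, which encodes perforin, in 9 of 14 with at most 8 UMIs. The chemokine gene Ccl5 was found in 14 of 14 cells at 21 to 168 UMIs each. Ifng, the interferon gamma gene, was found in 9 of 14. Granzyme A thus marked a minority of these cells, whereas Ccl5 was shared by all cells of replicate 1.

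Receptors and transcription factors differed among the same cells. Tbx21 was found in 12 of 14 and Eomes in 2 of 14 cells, and 1 cell had both. Itga1, an integrin of tissue-resident NK-like cells, was found in 9 of 14 cells, 2 of them with Gzma. The 6 cells with a UMI of the T cell receptor complex had 434 CPM of Itga1, against 75.5 CPM in the 8 without, and 807 CPM of Xcl1, against 2004 CPM. Tbx21 was found in 4 of those 6 cells and in all 8 of the others. Single cells carried much of both differences: 28 of the 50 Itga1 UMIs in the 6 cells came from the cell of 37571 UMIs with stromal or endothelial RNA and 18 from another, and 112 of the 239 Xcl1 UMIs in the 8 cells came from 1 cell. These subsets share 1 library, so the differences have no replicate.

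To set the kinds side by side, UMI counts were summed per set and library and fitted together with the sums of the 88 gamma-delta cells (edgeR quasi-likelihood test, library as a block, Benjamini-Hochberg adjustment over all genes). Of 5131 genes tested outside the rule, 102 were higher (1.99%) and 28 were lower (0.546%) in type 2 cells than in NK-rule cells at an adjusted p under 0.05, or 2.53% in either direction. The median log2 fold change over tested genes was 0.12. The replicate 2 sum of the NK rule is the single T cell receptor-bearing cell; without it the counts were 84 and 30, with the remaining NK-rule sum assumed to vary like the other sets. Without NK-rule replicate 1 they were 44 and 12, without type 2 replicate 1 178 and 21, and without type 2 replicate 2 135 and 94. Of 52 named or list genes with a value without NK-rule replicate 1, whose sum holds 14 of the 15 cells, 25 lost their call. The 52 include genes that were not called as reported and so had no call to lose. Without type 2 replicate 1 the calls of Ccdc184, Eepd1, Il17rb, Dusp2, Irf8, Srgn, Serpinb9, Il2rb, Ccl5 and Cd69 were lost. Without type 2 replicate 2 the call of Srgn was lost. By DESeq2 the call of Ccl5 was lost, with no replicate block those of Ccl5 and Srgn, and with only the 2 sets compared in the fit those of Rad51b, Il17rb, Irf8, Tnfsf11, Serpinb9 and Il2rb. Without all members that had a T cell receptor complex UMI, which also empties the NK rule of replicate 2, the counts were 33 and 18. Leaving out the type 2 and NK-rule cells with stromal or endothelial RNA, chosen after seeing the data, gave 391 and 138. These included all 102 and all 28. In every result of this setting the gamma-delta cells stayed whole, with 1 of 37 in replicate 1 holding such RNA. Where 1 set had no UMI, the fold is given as a lower bound computed against 3 counts over its libraries.

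Among type 2 effector molecules outside the rule, 8 of 14 had enough counts to be tested; 4 were higher in type 2 cells and 0 lower, and their median log2 fold change was 6.08, or 4.90 with genes absent from 1 set at their bound. Without members that had a T cell receptor complex UMI, 2 of 9 tested were higher. Furin (chr7:80388585-80405436 on GRCm38, protein coding), a protease that matures secreted proteins, was at 1319 and 1183 CPM in type 2 cells, against 21.3 and 0 CPM in NK-rule cells (log2 fold change 6.35, SE 0.58, edgeR adjusted p = 0.00151). It was found in 13 of 13 and 29 of 31 type 2 cells. Arg1, the arginine-degrading enzyme of type 2 cells, was at 252 and 275 CPM, against 4.27 and 0 CPM in NK-rule cells (6.31, SE 0.91, edgeR adjusted p = 0.0100). Calca was at 180 and 230 CPM, against 4.27 and 0 CPM (5.85, SE 0.95, edgeR adjusted p = 0.0157), with Pth-rich cells of the same glands at 6.42 and 0.431 CPM. The remaining called gene was Tnfsf11, which encodes the osteoclast factor RANKL; it had 202 and 169.5 CPM in type 2 cells and 0 and 68.1 CPM in NK-rule cells (5.61, SE 1.13, edgeR adjusted p = 0.0303). The log2 fold change of Tnfsf11 was 2.24 without NK-rule replicate 1 (edgeR adjusted p = 0.341), and with only the 2 sets in the fit it was 5.19 (edgeR adjusted p = 0.118). Csf2, the gene of GM-CSF, was at 216 and 221 CPM in type 2 cells with no UMI in NK-rule cells, at least 18.2-fold higher, and did not pass (edgeR adjusted p = 0.0622). Il13, at least 6.07-fold higher, did not pass either (edgeR adjusted p = 0.0991). Il2 lay outside the lists and was picked after its values were seen; its log2 fold change was 5.80 (SE 1.03, edgeR adjusted p = 0.0215).

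Receptors followed. Of 22 type 2 receptors 15 were tested, 4 were higher and 0 lower in type 2 cells, with a median log2 fold change of 2.63. Without likely doublets, or without cells with stromal or endothelial RNA, 11 of 15 were higher, and without members that had a T cell receptor complex UMI 2 of 17 were. Il7r, the receptor of the survival cytokine IL-7, was at 1254 and 1183 CPM, against 166 and 273 CPM in NK-rule cells (3.04, SE 0.38, edgeR adjusted p = 0.00648). Il2ra, the high-affinity IL-2 receptor chain, was at 1009 and 684 CPM, against 29.9 and 68.1 CPM (4.95, SE 0.64, edgeR adjusted p = 0.00698). In both genes each type 2 sum lay above each NK-rule sum. Ramp3, a partner chain of receptors for calcitonin-family peptides, was at 346 and 249 CPM with no UMI in NK-rule cells, at least 23.2-fold higher (edgeR adjusted p = 0.00725). Il17rb, a chain of the IL-25 receptor, was at 86.5 and 121.5 CPM with none in NK-rule cells, at least 9.20-fold higher (edgeR adjusted p = 0.0465, and 0.0526 without the NK-rule cell of replicate 2). Icos, a costimulatory receptor, did not pass, at 454 and 323 CPM in type 2 cells and 29.9 and 409 CPM in NK-rule cells (edgeR adjusted p = 0.184).

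For transcription factors of type 2 cells, 12 of 14 were tested, 3 were higher and 0 lower, with a median log2 fold change of 0.97. Without likely doublets 6 of 12 were higher, and without cells with stromal or endothelial RNA 5 of 12. Nfkb1 (chr3:135584655-135691547), which encodes an NF-kappaB subunit, was at 5162 and 4121 CPM, against 597 and 136 CPM in NK-rule cells (3.92, SE 0.39, edgeR adjusted p = 0.00201). Rora, a nuclear receptor needed for type 2 cell development, was at 3482 and 2491 CPM, against 358 and 0 CPM (3.95, SE 0.54, edgeR adjusted p = 0.00725). Pparg (chr6:115360951-115490399), a lipid-sensing nuclear receptor, was at 317 and 336 CPM in type 2 cells and had no UMI in NK-rule cells, at least 27.4-fold higher (edgeR adjusted p = 0.0132). These 3 genes were found in most type 2 cells: Nfkb1 and Rora in 13 of 13 and 31 of 31, and Pparg in 11 and 24. Ets1 was at 894 and 764 CPM, against 781 and 136 CPM in NK-rule cells, and did not pass (edgeR adjusted p = 0.492).

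On the NK side, 17 of 36 receptors and adaptors were tested, and 7 were lower and 0 higher in type 2 cells, with a median log2 fold change of -2.80. Without the NK-rule cell of replicate 2, 8 of 27 tested were lower and the median was -6.10. Without likely doublets 13 of 17 were lower at a median of -2.84, and without cells with stromal or endothelial RNA 13 of 17 at -6.49. Without members that had a T cell receptor complex UMI, which leaves 1 NK-rule sum, the median was -7.10 over 24 tested. In that setting the calls of Klrd1, Klrc1, Klrc2 and Il12rb2 were lost. Klrk1, the activating receptor NKG2D, was at 0 and 3.197 CPM in type 2 cells and 461 and 886 CPM in NK-rule cells (-7.49, SE 0.79, edgeR adjusted p = 0.00298). Fcer1g, a signalling adaptor, had no UMI in type 2 cells and 956 and 136 CPM in NK-rule cells, at least 137-fold lower (edgeR adjusted p = 0.00698). Klrd1 (chr6:129591782-129598775), the CD94 chain, had none in type 2 cells and 409.5 and 409 CPM in NK-rule cells, at least 61.6-fold lower (edgeR adjusted p = 0.0199). Its partners Klrc1 and Klrc2, the NKG2A and NKG2C chains, were at least 38.7-fold and 29.0-fold lower, and both missed the threshold without the NK-rule cell of replicate 2 (edgeR adjusted p = 0.0623 and 0.131). Reads of these similar receptor genes may be split between paralogs. Il2rb, the shared chain of the IL-2 and IL-15 receptors, was detected in both kinds, at 86.5 and 83.1 CPM in type 2 cells and 1037 and 681.5 CPM in NK-rule cells (-2.80, SE 0.45, edgeR adjusted p = 0.0157). Il12rb2, a chain of the IL-12 receptor, was at 7.21 and 0 CPM in type 2 cells and 363 and 750 CPM in NK-rule cells (-6.91, SE 1.39, edgeR adjusted p = 0.0303). The adaptor Hcst (DAP10) did not pass, at 533 and 345 CPM in type 2 cells and 401 and 477 CPM in NK-rule cells (edgeR adjusted p = 0.750). Tyrobp (DAP12) did not pass the filter on low counts, and had no UMI in type 2 cells against 951 and 0 CPM in NK-rule cells, at least 135-fold lower.

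Of 15 cytotoxic molecules outside the rule 11 were tested, and 1 was higher and 2 lower in type 2 cells, at a median log2 fold change of -3.08. Of those tested, 7 of 11 were lower without likely doublets and 7 of 10 without cells with stromal or endothelial RNA. The median was -3.57 without the NK-rule cell of replicate 2 and -4.20 without members that had a T cell receptor complex UMI. Either setting leaves 1 NK-rule sum, and in the second the calls of Fasl and Srgn were lost. Fasl, the death receptor ligand, had no UMI in type 2 cells and 179 and 204 CPM in NK-rule cells, at least 27.2-fold lower (edgeR adjusted p = 0.0216). Serpinb9, an inhibitor of granzyme B, was at 28.8 and 32.0 CPM in type 2 cells and 525 and 273 CPM in NK-rule cells (-3.08, SE 0.62, edgeR adjusted p = 0.0301). The gene that was higher in type 2 cells was Srgn, which encodes the granule proteoglycan serglycin, at 2646 and 1698 CPM against 1126 and 750 CPM in NK-rule cells (1.64, SE 0.32, edgeR adjusted p = 0.0278, and 0.107 without the NK-rule cell of replicate 2). Gzmb and Ifng had no UMI in type 2 cells, at least 35.6-fold and 25.4-fold lower, without passing (edgeR adjusted p = 0.0628 and 0.0711). Ctsw, a cathepsin of cytotoxic cells, did not pass (edgeR adjusted p = 0.0813).

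Among 9 NK transcription factors 4 were tested, 1 was higher and 1 lower, at a median of -0.77. Irf8 was at 7.21 and 0 CPM in type 2 cells and 290 and 68.1 CPM in NK-rule cells (-5.21, SE 1.00, edgeR adjusted p = 0.0249). Ikzf3, the Aiolos gene, was the one higher in type 2 cells, at 1283 and 972 CPM against 149 and 68.1 CPM (3.45, SE 0.45, edgeR adjusted p = 0.00725). Runx3 did not pass (log2 fold change -0.98, edgeR adjusted p = 0.558), and its sign turned without the NK-rule cells of replicate 1. Tbx21 fell outside the tested genes, with no UMI in 44 type 2 cells, at least 38.7-fold lower than in NK-rule cells.

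**Figure D3:**
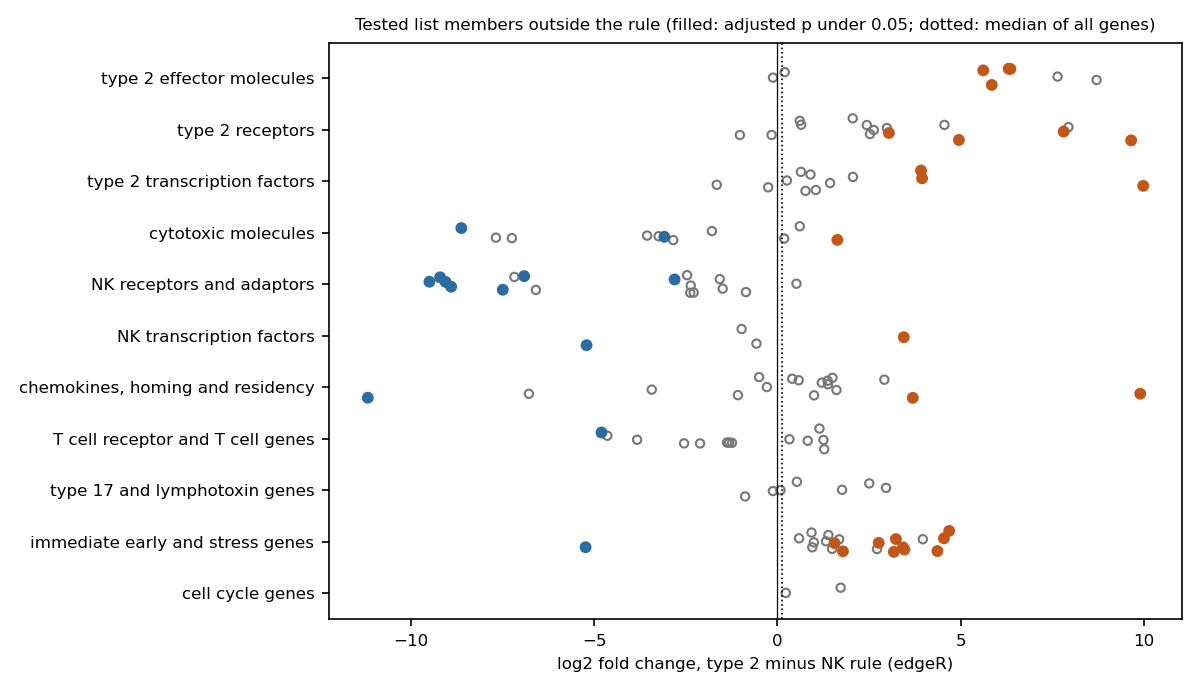
Log2 fold change (type 2 minus NK rule, edgeR) of the tested members of 11 gene lists, with 1 point per gene, filled where the adjusted p was under 0.05, and the dotted line at the median of all tested genes (0.12). Values near the ends belong to genes with no UMI in 1 set, whose fitted fold depends on the prior count. Type 2 effectors and receptors lie mostly right of zero and NK receptors mostly left.

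Of 28 chemokine, homing and residency genes, 17 were tested, 2 were higher and 1 was lower, with a median of 1.00. Without likely doublets 5 were higher and 3 lower, and without cells with stromal or endothelial RNA 7 and 3. Ccl5 had no UMI in type 2 cells and 3967 and 0 CPM in NK-rule cells, at least 562-fold lower (edgeR adjusted p = 0.00395). That p was 0.662 by DESeq2 and 0.0768 by edgeR with no replicate block. Cxcl2, a neutrophil chemokine, was at 353 and 1087 CPM in type 2 cells with none in NK-rule cells, at least 71.5-fold higher (edgeR adjusted p = 0.00624), but it came from 2 of 13 and 12 of 31 cells. Cd69, which holds lymphocytes in tissue, was at 1463 and 681 CPM, against 107 and 136 CPM in NK-rule cells (3.69, SE 0.57, edgeR adjusted p = 0.0137). Rgs2, a regulator of G protein signalling, did not pass (edgeR adjusted p = 0.246).

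Immediate early and stress genes, which cells switch on soon after a stimulus, were the list with the most calls: 21 of 26 were tested, 10 were higher and 1 lower in type 2 cells, with a median log2 fold change of 1.79. Without members that had a T cell receptor complex UMI, 6 of 23 were higher, and without likely doublets 15 of 21. Fosb was at 1939 and 1503 CPM, against 136 and 0 CPM in NK-rule cells (4.36, SE 0.54, edgeR adjusted p = 0.00624). Gadd45b was at 1990 and 1448 CPM, against 128 and 0 CPM (4.54, SE 0.51, edgeR adjusted p = 0.00395). Nfkbia, an inhibitor and target of NF-kappaB, was at 2603 and 2820 CPM, against 427 and 68.1 CPM (3.42, SE 0.48, edgeR adjusted p = 0.00862). In each of these genes both type 2 sums lay above both NK-rule sums. Nfkbiz, Atf3, Nr4a1, Fos, Jun, Junb and Jund also passed, and Egr1 did not (edgeR adjusted p = 0.0665). The phosphatase gene Dusp2 was the exception, at 0 and 6.39 CPM in type 2 cells and 358 and 204 CPM in NK-rule cells (-5.23, SE 0.95, edgeR adjusted p = 0.0224).

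The other lists had at most 1 call. T cell genes had 13 of 18 tested, 0 higher and 1 lower, with a median of -1.31, or -1.24 at the bounds, and 5 of 13 were lower without likely doublets. The gene was Cd3d, at 0 and 12.8 CPM in type 2 cells and 102 and 818 CPM in NK-rule cells, and its adjusted p of 0.0226 by edgeR was 0.0751 without the NK-rule cell of replicate 2. Trbc1 did not pass, at 209 and 393 CPM in type 2 cells and 354 and 2726 CPM in NK-rule cells (edgeR adjusted p = 0.280). Type 17 and lymphotoxin genes had 7 of 12 tested and 0 called, with Il17a at 0 UMIs in both kinds. Of 16 cell cycle genes 2 had enough counts to be tested and 0 were called.

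Genes were also ranked by size among called genes of equal sign in both libraries with at least 50 CPM in both sums of the higher set. The 12 largest differences in each direction within these limits included several genes outside the lists. Ccl5, called lower, was left out by the CPM limit, since the NK-rule cell of replicate 2 had none. Pard3, a cell polarity gene, was at 1478 and 985 CPM in type 2 cells, against 8.53 and 0 CPM in NK-rule cells (7.62, SE 0.65, edgeR adjusted p = 0.0013), and every type 2 cell had a Pard3 UMI. Pard3 stood at 132 and 106 CPM in the other cells of the glands. Hs3st1, a heparan sulphate sulphotransferase gene, was at 469 and 227 CPM and at least 25.0-fold higher (edgeR adjusted p = 0.0197). Ltb4r1, the leukotriene B4 receptor gene, was at 245 and 342 CPM and at least 25.9-fold higher (edgeR adjusted p = 0.00725). Ccdc184, Stxbp6, Cntn1, Eepd1 and Rad51b completed this group, at least 8.83-fold to 19.9-fold higher with no UMI in NK-rule cells. Their calls and that of Hs3st1 were lost without members that had a T cell receptor complex UMI, which leaves 1 NK-rule sum. Those of Stxbp6 and Eepd1 were also lost without the cell of most UMIs in each sum.

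In the other direction, Ly6c2 had no UMI in type 2 cells and 158 and 2521 CPM in NK-rule cells, at least 44.7-fold lower, and 37 of its 74 UMIs came from the replicate 2 cell, without which it did not pass (edgeR adjusted p = 0.107). Ly6c2 is nearly identical to Ly6c1, so its counts are uncertain. Ms4a4b, a membrane protein gene of T and NK cells, was at 14.4 and 0 CPM in type 2 cells and 781 and 818 CPM in NK-rule cells (-6.66, SE 1.14, edgeR adjusted p = 0.0197). The calls of Ly6c2 and Ms4a4b were lost without members that had a T cell receptor complex UMI. Slc16a10, an aromatic amino acid transporter gene, was at 0 and 6.39 CPM in type 2 cells and 503 and 341 CPM in NK-rule cells (-5.76, SE 0.85, edgeR adjusted p = 0.0108). Of its NK-rule UMIs in replicate 1, 53 came from the cell of 37571 UMIs with stromal or endothelial RNA. All 28 lower calls, Slc16a10 among them, held without likely doublets, a setting that leaves this cell out.

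**Figure D4:**
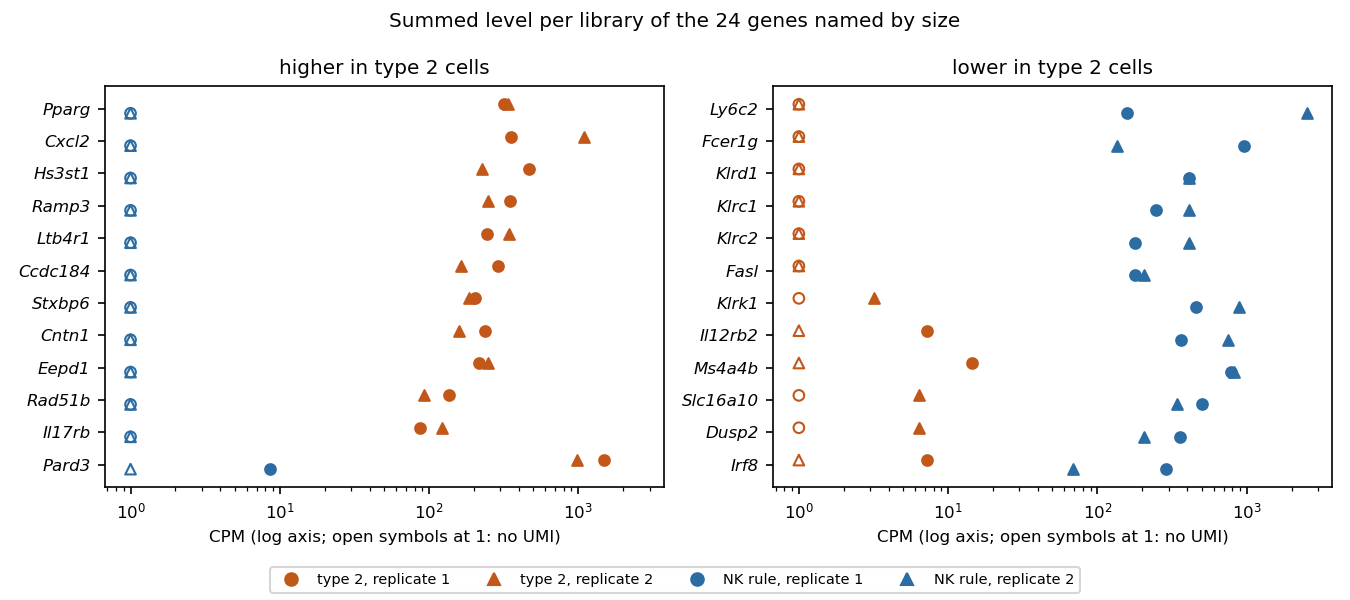
Summed level per library (CPM, log axis) of genes with the 12 largest positive (left) and 12 largest negative (right) log2 fold changes. They are called genes of equal sign in both libraries with at least 50 CPM in both sums of the higher set. Circles stand for replicate 1, triangles for replicate 2, orange for type 2 sums and blue for NK-rule sums. Open symbols at 1 stand for no UMI; in the left panel Pard3 alone has an NK-rule value above 0, at 8.53 CPM.

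Gamma-delta T cells of the same glands (37 and 51 cells with at least 2 of Trdc, Tcrg-C1, Cd163l1 and Il23r) were the third set of the fit. Of 5131 genes, 108 were higher (2.10%) and 73 lower (1.42%) in type 2 cells than in gamma-delta cells, or 3.53% in either direction, and 36 were higher (0.702%) and 66 lower (1.29%) in NK-rule cells than in gamma-delta cells. These comparisons share the gamma-delta sums. Leaving out the NK-rule cell of replicate 2 changed the counts of NK-rule against gamma-delta cells to 95 and 86, and without NK-rule replicate 1 they were 8 and 17. Without type 2 replicate 1, those of type 2 against gamma-delta cells were 395 and 92, and without type 2 replicate 2 they were 70 and 62. Leaving out gamma-delta replicate 1 gave 59 and 30 for type 2 and 35 and 43 for NK-rule cells, and leaving out gamma-delta replicate 2 gave 45 and 15 for type 2 and 19 and 58 for NK-rule cells.

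Several type 2 genes separated the type 2 cells from the gamma-delta cells as well. Nfkb1 was at 5162 and 4121 CPM in type 2 cells, against 1360 and 834 CPM in gamma-delta cells (2.36, SE 0.33, edgeR adjusted p = 0.0052). Il13 passed here, at 79.3 and 70.3 CPM against 2.049 and 2.201 CPM (5.09, SE 1.10, edgeR adjusted p = 0.0426). Kit, the stem cell factor receptor gene, was at 231 and 230 CPM, against 2.05 and 6.60 CPM in gamma-delta cells (5.84, SE 0.78, edgeR adjusted p = 0.0052). Others were shared with them: Il7r was at 1254 and 1183 CPM in type 2 cells and 1526 and 2635 CPM in gamma-delta cells (-0.49, SE 0.31, edgeR adjusted p = 0.581), and Ramp3 was at 346 and 249 CPM in type 2 cells and 385 CPM in each gamma-delta sum (-0.16, SE 0.42, edgeR adjusted p = 0.955). A p above the threshold does not show that these levels were equal.

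Within the same limits on sign and CPM, the largest differences of type 2 cells from gamma-delta cells were Ccl1 and Il17a. Ccl1, the ligand of CCR8, was at 541 and 285 CPM with no gamma-delta UMI (at least 114-fold higher, edgeR adjusted p = 0.00263). Il17a had none in type 2 cells against 502 and 460 CPM (at least 72.5-fold lower, edgeR adjusted p = 0.00424). Thsd4, Plcl1, Sema6d and Ptgir, a prostacyclin receptor gene, were the next higher ones, and Ppp1r14c, Cdh10, Kcnk1 and Ablim3 the next lower. Of 7 type 17 and lymphotoxin genes tested, 5 were lower and 0 higher in type 2 cells, and of 13 T cell genes 6 were lower and 1, Cd27, was higher. Ccl1 was also seen in 1 NK-rule cell with 26 UMIs, and type 2 against NK-rule cells it did not pass (edgeR adjusted p = 0.0600).

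NK-rule cells differed from gamma-delta cells in their receptors, of which 6 of 17 tested were higher and 0 lower, or 12 and 1 without likely doublets. Itga1 was at 252 and 204 CPM in NK-rule cells and 6.15 and 0 CPM in gamma-delta cells (5.95, SE 1.22, edgeR adjusted p = 0.0398). Of its NK-rule UMIs in replicate 1, 28 came from the cell of 37571 UMIs with stromal or endothelial RNA and 18 from another. Klrc1 was at 247 and 409 CPM, against 2.05 and 0 CPM (7.36, SE 0.94, edgeR adjusted p = 0.00936). Prkch, a protein kinase C gene, was at 1118 and 750 CPM, against 18.4 and 13.2 CPM (5.70, SE 0.66, edgeR adjusted p = 0.00588). The cell of 37571 UMIs held 91 of the Prkch UMIs. Klrc2 and Klrd1 were the other 2 of the 5 largest within the limits on sign and CPM. On the lower side stood Il17a, Blk, Ramp3, Actn2 and Cdh10, each with no UMI in NK-rule cells. Ramp3 was at least 32.0-fold lower than in gamma-delta cells (edgeR adjusted p = 0.00811).

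The libraries also count the reporter transcripts. What Gfp marks is not stated in the labels. In type 2 cells Gfp was at 411 CPM in replicate 1, between 311 and 532 by counting error, and at 2005 CPM in replicate 2, between 1851 and 2168. NK-rule cells had 456 CPM in replicate 1 and no Gfp UMI in replicate 2, where the limit of 3 counts that a count of 0 allows equals 204 CPM. Gamma-delta cells had 1860 and 2228 CPM, and Pth-rich cells 5050 and 3910 CPM. At least 5 Gfp UMIs were found in 3 of 13 and 19 of 31 type 2 cells, in 5 of 14 and 0 of 1 NK-rule cells, and in 26 of 37 and 32 of 51 gamma-delta cells. Type 2 cells thus lay below gamma-delta cells in replicate 1 and near them in replicate 2, and the cells within a set ranged from 0 to 97.2 Gfp UMIs per 10000. tdTomato stood at 72.1 and 83.1 CPM in type 2 cells and 235 and 136 CPM in NK-rule cells, against 10014 and 10966 CPM in Pth-rich cells. Gamma-delta cells had 111 and 136 CPM. Of the tdTomato UMIs in NK-rule cells of replicate 1, 34 came from the cell of 27636 UMIs that also held 122 Pth UMIs. No other NK-rule cell of that library had more than 4.

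**Figure D5:**
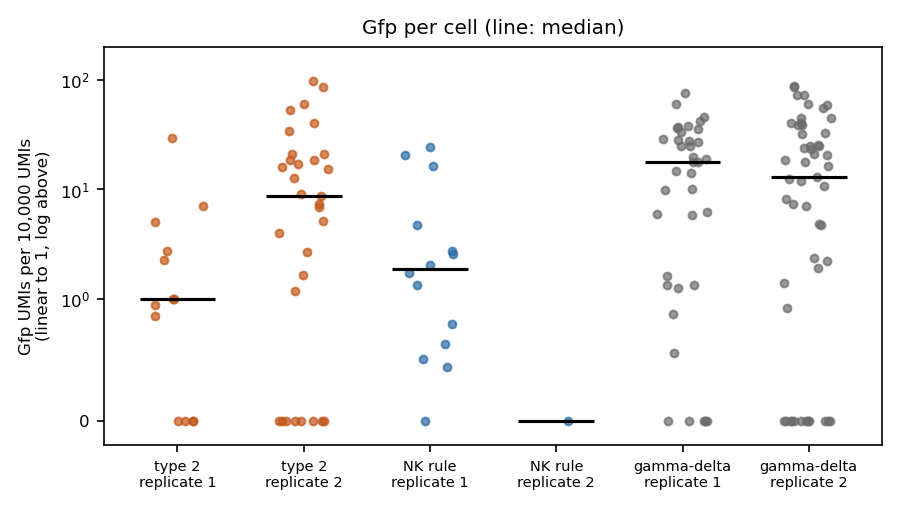
Gfp UMIs per 10000 UMIs of each cell (linear to 1, logarithmic above) in type 2, NK-rule and gamma-delta cells of each library, with the median as a line. Medians are 1.00 and 8.68 in type 2 cells, 1.89 and 0 in NK-rule cells, and 17.7 and 13.1 in gamma-delta cells of replicates 1 and 2.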

How the data were processed

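Droplet 3' libraries were analysed from the deposited raw UMI counts per gene and barcode, which the authors made with Cell Ranger 7.0.0 on build mm10, per the file headers and the submitters' processing notes. The method of cell calling was not given in the sources used here. Cells were released with papain, collagenase and trypsin and sorted as singlets, per the labels' protocols.

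The members and gene lists were chosen with earlier results of these data known. Cells were selected by the stated UMI limits, with no clustering. Scrublet (scanpy 1.11.5) predicted 23 and 6 doublets in the libraries. An alternative left out, as likely doublets, predicted ones and cells with a score of at least 0.25. Counts were summed per set and library, and the 6 sums were fitted with edgeR 4.0.16 (R 4.3.3; TMM, filterByExpr, quasi-likelihood test), leaving 2 residual degrees of freedom, with calls at an adjusted p of 0.05 over 5158 tested genes. Rule, Pth, C1q and mitochondrial genes were kept in the fit but left out of all counts. The library was a block because the sets of a library come from the same pool of mice, so pairing comes from the design. The p-values rest on 2 pools of mice, with 1 estimate of the spread shared by the 3 sets and 7.64 prior degrees of freedom borrowed across genes. The NK-rule sum of replicate 2 is 1 cell, so for that set variation between pools and between cells cannot be told apart.

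CPM is UMIs per 1000000 of a sum, computed here, with exact Poisson intervals. Shares at equal depth are the expected share of cells with a UMI after thinning each cell to 5000 UMIs. Intervals and floors of 3 counts cover counting error only. Named genes were the 12 largest fold changes each way for type 2 against NK-rule cells and 5 each way against gamma-delta cells, among called genes of equal sign in both libraries with at least 50 CPM in both sums of the higher set, without mitochondrial, ribosomal, Gm-number, Rik, immunoglobulin or haemoglobin genes. From each list, at most 6 called genes (smallest p first) and the most abundant uncalled gene were named. Uncalled Il13, Gzmb, Ifng and Ccl1 and genes named per cell were added after their values were seen. The script was tested on simulated data. DESeq2 1.42.0 was an alternative. Promoters were read from RefSeq sequences of GRCm38.p6; 14 of the 15 genes searched had an entry.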

Additional observations from a re-analysis of the deposited data

How the results depend on the processing

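The lower calls of type 2 against NK-rule cells, 28 as reported, were 52 with no replicate block, where the higher calls were 115. No replicate block gave 117 lower calls (73 as reported) for type 2 and 74 higher (36) for NK-rule against gamma-delta cells. Without the count filter, higher and lower calls were 192 and 61 for type 2 against NK-rule cells, 224 and 131 for type 2 against gamma-delta cells, and 173 and 164 for NK-rule against gamma-delta cells, and without likely doublets they were 370 and 124, 364 and 235, and 179 and 269. Without type 2 and NK-rule cells with stromal or endothelial RNA, chosen after seeing the data, they were 391 and 138, 374 and 233, and 171 and 248. The 1 gamma-delta cell of replicate 1 with such RNA stayed in these fits. With only the 2 sets compared in the fit, there were 51 higher calls for type 2 against NK-rule cells, 244 and 178 for type 2 and 98 and 172 for NK-rule against gamma-delta cells. DESeq2 gave 186 and 46 for type 2 against NK-rule cells. Without members with a T cell receptor complex UMI these were 33 and 18. Without the cell of most UMIs in each sum, type 2 against gamma-delta cells gave 241 and 151. With Pth below 0.3%, NK-rule against gamma-delta cells gave 43 lower calls. Leaving out 1 sum in turn gave 44 to 178 higher and 12 to 94 lower calls for type 2 against NK-rule cells, lowest without NK-rule replicate 1 in both. It gave 45 to 395 and 15 to 92 for type 2, and 8 to 95 and 17 to 86 for NK-rule against gamma-delta cells. Only sums of the 2 sets compared were left out, and the sums of the third set stayed in each fit. A lone sum was then assumed to vary like the other sets, and the causes were not tested. Requiring 2 of Areg, Il5 and Ccr8 left 19 type 2 cells in replicate 2, and removing cells with the T cell receptor complex left 0 NK-rule cells there. Of 890 values of 56 named or list genes, 769 kept their direction and side of the threshold, 88 were no longer called, 32 became called, and Runx3, at -1.39 to 0.46 over the sums left out, turned positive without NK-rule replicate 1. Of these, 25 of 52 were lost without NK-rule replicate 1, 24 of 56 without the T cell receptor complex cells, and 6 without NK-rule replicate 2. Both the 52 and the 56 include genes that were not called as reported and so had no call to lose. DESeq2 size factors changed no call of the named genes. Depth limits the NK-rule sum of replicate 2 most, where 3 UMIs equal 204 CPM.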
